A study of Homo sapiens with 4 samples.

Results

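HLA class II molecules are paired α and β chains that carry peptides to the surface of antigen-presenting cells, where CD4 T cells read them. They are usually low in epithelial cells, and colon epithelium can gain them under interferon-γ. In colon cancer cells 10 genes of this pathway were followed: the surface chains *HLA-DRA*, *HLA-DRB1*, *HLA-DPA1*, *HLA-DPB1* and *HLA-DQA1*, the peptide exchange chains *HLA-DMA* and *HLA-DMB*, the invariant chain *CD74*, the transactivator *CIITA* and the protease *CTSS*. They were chosen by name, with earlier results of these data known. Shares of all genes set beside counts of these genes are therefore descriptive only. Of the 10, 9 had a probe and 5 had a probe that passed the detection filter, out of 11875 genes with such a probe.

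RNA came from HCT116, an established human colorectal cancer cell line, and was hybridised to Illumina HumanHT-12 v4 BeadChips. The 2 HCT116-MT samples carried only the mutant allele of *CTNNB1*, which encodes β-catenin, and the 2 HCT116-WT samples only the wild-type allele. Each subline had been made from the parental line by disrupting the other allele, so that each genotype was represented by 1 subline. Both were grown in RPMI medium with serum, and no treatment, interferon included, was given. Nothing in the sources used here says whether the 2 samples of a line were separate cultures, so a p-value here reflects the spread among these arrays alone, which may be technical. Probe intensities are in arbitrary units, and a detection p-value under 0.05 means that a probe stood above the negative controls of its array. A probe was kept when 2 or more of the 4 arrays met this, and the brightest kept probe stood for its gene. Fold changes are HCT116-MT minus HCT116-WT on the log2 scale. With bulk RNA, fewer cells with a transcript and less of it per cell cannot be told apart.

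Newly made α and β chains assemble in the endoplasmic reticulum around the invariant chain, which blocks the peptide groove and steers the complex to endosomes. There proteases, cathepsin S among them, trim the invariant chain down to a remnant, and HLA-DM exchanges the remnant for peptide. The promoters share a set of short elements, the X and Y boxes. The RFX complex, CREB and NF-Y bind them, and CIITA, which does not bind DNA itself, is recruited to that assembly.

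The promoters are shown because some genes that were detected and some that were not hold the same short words there. RefSeq promoter stretches of build GRCh38.p14 were at hand for 7 of the 10 genes, in 8 entries, each from 250 bases before to 50 bases after a gene's start. Both strands were searched for exact matches to GATTGG, a word from the Y box, and to AGCAAC and AGAGAC, words from X boxes. The word CTGATGATG was added after these letters had been read. Capitals mark each match in the 120 bases before the start, and the match to GATTGG or AGAGAC on the opposite strand is capitalised as CCAATC or GTCTCT. The stretches lie on the minus strand at chr6:32953098-32953217 (*HLA-DMA*), chr6:32941029-32941148 (*HLA-DMB*), chr6:32589849-32589968 (*HLA-DRB1*) and chr5:150412911-150413030 (*CD74*).
HLA-DMA: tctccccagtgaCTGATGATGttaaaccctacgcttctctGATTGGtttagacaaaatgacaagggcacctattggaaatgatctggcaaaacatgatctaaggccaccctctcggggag
HLA-DMB: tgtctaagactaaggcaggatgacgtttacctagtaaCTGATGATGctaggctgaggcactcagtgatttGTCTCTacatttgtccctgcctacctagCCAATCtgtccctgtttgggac
HLA-DRB1: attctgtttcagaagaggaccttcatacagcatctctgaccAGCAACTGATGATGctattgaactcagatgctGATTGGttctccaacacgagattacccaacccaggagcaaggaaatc
CD74: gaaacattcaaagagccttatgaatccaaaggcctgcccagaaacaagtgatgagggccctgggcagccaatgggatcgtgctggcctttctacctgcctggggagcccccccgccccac

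The *HLA-DMA* stretch held CTGATGATG at −108 to −100 and GATTGG at −80 to −75. Its searched window also held AGCAAC at −216 to −211, outside the printed stretch. In the *HLA-DMB* stretch CTGATGATG lay at −83 to −75, and GATTGG was on the opposite strand at −22 to −17. AGAGAC was on the opposite strand at −50 to −45, and also at −138 to −133, outside the printed stretch. *HLA-DRB1* had AGCAAC at −79 to −74, which shares a base with CTGATGATG at −74 to −66, and GATTGG at −47 to −42. Over the 35116 promoters of this length, GATTGG was in 15.1%, AGCAAC in 12.8%, AGAGAC in 16.9% and CTGATGATG in 0.271%. Both CTGATGATG and GATTGG were in 0.0399%, or 14 promoters, and the 3 promoters above were among those. As CTGATGATG was chosen after these promoters had been read, that they are among the 14 follows from the choice. The *HLA-DPB1* promoter held GATTGG and AGAGAC on the opposite strand, and 1 of the 2 *HLA-DPA1* entries held AGCAAC at −99 to −94. None of these exact words was in the entries of *CD74* and *HLA-DQA1* or in the other *HLA-DPA1* entry. The *CD74* stretch holds ccaatg, which differs from CCAATC in its last base, and such near matches were not searched for. The lack of these words therefore does not show that a promoter lacks X or Y boxes. The letters describe these windows only.

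Of the 9 class II genes with a probe, *HLA-DRA*, *HLA-DPA1*, *HLA-DMA* and *HLA-DMB* were detected on all 4 arrays, and each was lower on both HCT116-MT arrays than on both HCT116-WT arrays. Their mean levels were 1.70- to 2.14-fold lower in HCT116-MT. *CD74* was near background and did not separate the lines. *HLA-DRB1* was detected on 1 array, and *HLA-DPB1*, *CIITA* and *CTSS* on 0. No probe used here carries the symbol *HLA-DQA1*, which was not analysed here.

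**Figure D1:**
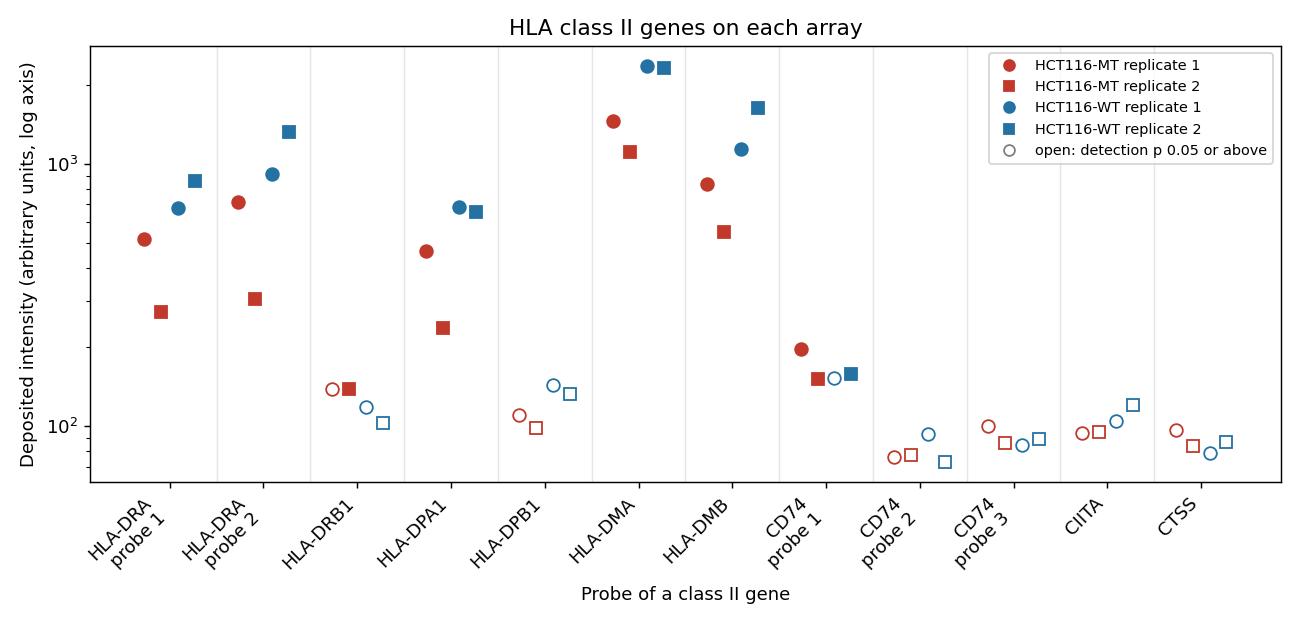
Deposited intensity (arbitrary units, log axis) of every probe of the class II genes on the 2 HCT116-MT arrays (red) and the 2 HCT116-WT arrays (blue), with circles for replicate 1, squares for replicate 2 and open symbols for a detection p-value of 0.05 or above. Both probes of *HLA-DRA* and the probes of *HLA-DPA1*, *HLA-DMA* and *HLA-DMB* had both red symbols under both blue ones, and most other symbols are open.

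*HLA-DRA*, the invariable α chain of HLA-DR, had 2 probes. The brighter gave intensities of 714 and 305 in HCT116-MT, against 916 and 1323 in HCT116-WT. HCT116-MT replicate 2 was far below the other 3 arrays, and the remaining HCT116-MT array came close to HCT116-WT replicate 1. The log2 fold change after quantile normalization was −1.10 (SE 0.46, 95% interval −2.21 to 0.01), with an unadjusted p of 0.05168 and an adjusted p of 0.540 by limma. The other probe read 518 and 273 in HCT116-MT and 677 and 858 in HCT116-WT, with a log2 fold change of −0.87 (SE 0.36). Both probes thus placed the 4 arrays in the same order.

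*HLA-DPA1*, the α chain of HLA-DP, had intensities of 465 and 237 in HCT116-MT, against 683 and 658 in HCT116-WT. Both HCT116-WT arrays were near each other, and HCT116-MT replicate 2 was again the lowest. The log2 fold change was −0.86 (SE 0.32, 95% interval −1.64 to −0.07), with an unadjusted p of 0.03652 and an adjusted p of 0.494 by limma.

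*HLA-DMA* and *HLA-DMB* encode the α and β chains of HLA-DM, the exchange factor that works inside the endosome. *HLA-DMA* read 1462 and 1112 in HCT116-MT, against 2367 and 2330 in HCT116-WT. The gap between the lines exceeded the gap between the arrays of either line. The log2 fold change was −0.76 (SE 0.23, 95% interval −1.32 to −0.21), with an unadjusted p of 0.01455 and an adjusted p of 0.420 by limma. *HLA-DMB* read 841 and 551 in HCT116-MT, against 1143 and 1633 in HCT116-WT. The groups did not overlap, but the arrays of HCT116-WT (log2 difference −0.95) were further apart than the means of the lines. Its log2 fold change was −0.86 (SE 0.35), with an unadjusted p of 0.05005 and an adjusted p of 0.537 by limma.

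*CD74*, the invariant chain, had 3 probes. The first read 196 and 151 in HCT116-MT, against 153 and 158 in HCT116-WT, and it passed the detection threshold on 3 of 4 arrays. The groups overlapped, and the log2 fold change was 0.23 (SE 0.21, 95% interval −0.29 to 0.75). The other 2 probes stayed between 73.1 and 99.7 and were detected on 0 of 4 arrays.

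The remaining probes stood at or near background. *HLA-DRB1*, a β chain of HLA-DR, read 138 and 139 in HCT116-MT and 118 and 103 in HCT116-WT, and passed detection on HCT116-MT replicate 2 with a detection p-value of 0.0403. *HLA-DPB1*, the β chain of HLA-DP, read 110 and 98.6 in HCT116-MT and 143 and 132 in HCT116-WT, with detection p-values from 0.0714 to 0.475. The partner of *HLA-DPA1* was therefore not well above background on any array, and no fold change was taken from it. *CIITA* read 94.0 and 94.7 in HCT116-MT and 105 and 120 in HCT116-WT. *CTSS* read 96.4 and 84.3 in HCT116-MT and 78.7 and 87.1 in HCT116-WT. Neither was detected on any array, which says that these probes did not exceed the negative controls and not that the transcripts were absent.

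The study's methods set a fold change over 1.5 and an unadjusted p under 0.05 as thresholds. By these, 2 of the 5 class II genes with a kept probe were lower (*HLA-DPA1* and *HLA-DMA*) and 0 higher, beside 3.85% lower and 3.46% higher among all 11875 genes. *HLA-DRA* and *HLA-DMB* had larger or equal fold changes and missed the p threshold. The median log2 fold change of the 5 genes was −0.86, and that of all genes was 0. Both HCT116-MT arrays lay below both HCT116-WT arrays for 4 of the 5, a pattern that 19.1% of all genes had, and above them for 0, beside 20.7% of all genes. After adjustment over all genes, limma called 0 of the 5, beside 0.0674% of all genes. At an unadjusted p under 0.05, whatever the fold change, 2 of the 5 passed, beside 9.28% of all genes. Student's t-test called 0 unadjusted and 0 adjusted, and limma with a mean-variance trend called 4 unadjusted and 0 adjusted. An exact permutation test of 2 arrays against 2 cannot give a p under 0.333.

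The call rested on particular arrays. Without HCT116-MT replicate 2 or without HCT116-WT replicate 2, 0 of the 5 genes passed the study thresholds, and without HCT116-WT replicate 1 all of *HLA-DRA*, *HLA-DPA1*, *HLA-DMA* and *HLA-DMB* did (4 genes). Over all genes the number lower moved too: it was 224 without HCT116-MT replicate 2, 768 without HCT116-WT replicate 2 and 837 without HCT116-WT replicate 1, beside 457 with all arrays. These 4 genes also passed when arrays were scaled to a common median. That scaling gave 516 genes lower and 248 higher, against 457 lower and 411 higher with quantile normalization.

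Set array against array, the 4 detected chains were lower in HCT116-MT in each of the 4 pairings, by amounts that differed widely. For *HLA-DRA* the log2 difference between normalized intensities was −0.08 for replicate 1 of both lines and −2.12 for replicate 2 of both lines. *HLA-DPA1* spanned −0.27 to −1.45 and *HLA-DMB* −0.16 to −1.57 over the same pairings. *HLA-DMA* had the narrowest range, −0.46 to −1.07. The difference was thus smallest between the replicate 1 arrays and largest between the replicate 2 arrays for each of these genes. *CD74* spanned 0.48 to −0.02 over the pairings.

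**Figure D2:**
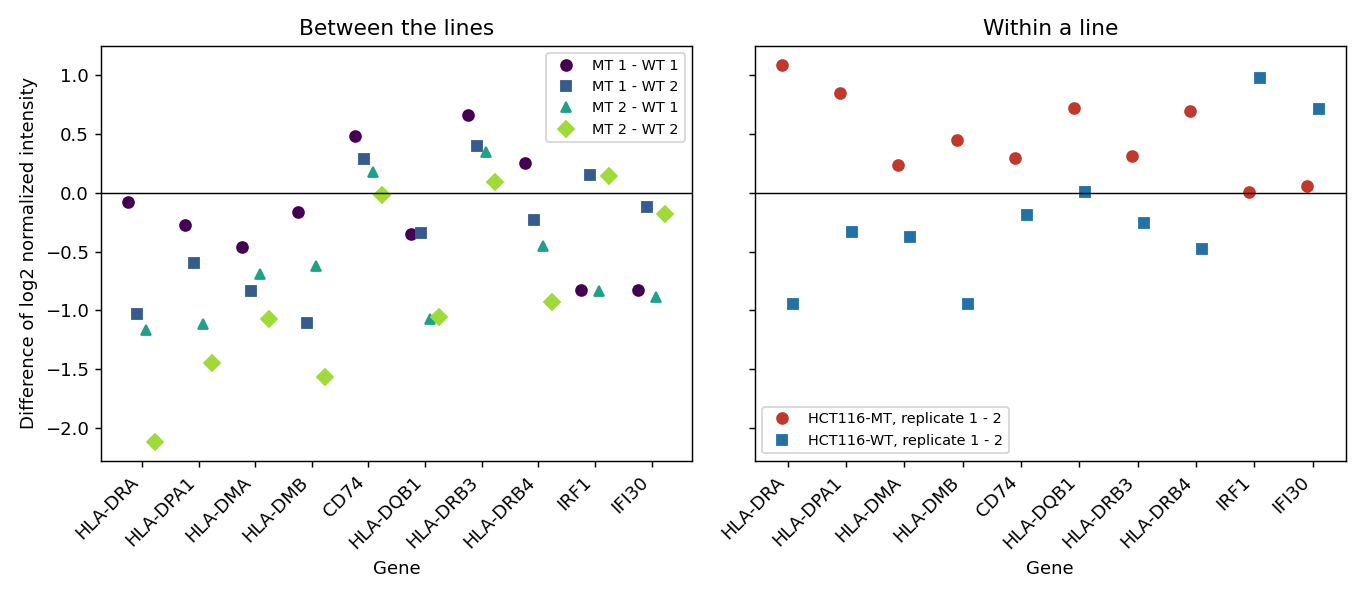
Differences of log2 normalized intensity for the 5 class II genes with a kept probe and 5 other genes of the pathway, between single HCT116-MT and HCT116-WT arrays (left panel, 4 pairings) and between replicate 1 and replicate 2 of each line (right panel). The 4 detected chains lie under 0 in every pairing, and within HCT116-WT they lie under 0 where *IRF1* and *IFI30* lie above.

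Within a line, the class II genes differed by more than the median gene, 5 of 5 in HCT116-MT and 4 of 5 in HCT116-WT. In HCT116-MT, replicate 1 exceeded replicate 2 by 1.09 on the log2 scale for *HLA-DRA*, 0.85 for *HLA-DPA1*, 0.45 for *HLA-DMB*, 0.30 for *CD74* and 0.24 for *HLA-DMA*. The median over the 5 was 0.45, and the median absolute difference of all genes between these arrays was 0.21. In HCT116-WT the order was the other way: the difference, replicate 1 minus replicate 2, was −0.95 for *HLA-DRA*, −0.95 for *HLA-DMB*, −0.38 for *HLA-DMA*, −0.33 for *HLA-DPA1* and −0.19 for *CD74*. Their median was −0.38, and the median absolute difference of all genes was 0.27. The differences of *HLA-DRA* exceeded the 90th percentile of all genes in both lines, 0.58 in HCT116-MT and 0.78 in HCT116-WT. Before normalization *HLA-DPA1* and *HLA-DMA* read slightly higher on HCT116-WT replicate 1, so their order within HCT116-WT depends on the scaling. With 1 pair of arrays per line, these differences have no error of their own.

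HCT116-MT replicate 2 had the lowest of the 4 values for 4 of the 5 class II genes, beside 26.4% of all genes. The share of probes detected was 41.4% and 42.3% in HCT116-MT and 41.8% and 42.5% in HCT116-WT, and the median intensity 127 and 122 in HCT116-MT and 135 and 126 in HCT116-WT. HCT116-MT replicate 2 had the lowest median intensity, by a small margin, and its share of probes detected lay within the range of the other arrays. Its correlation with the other HCT116-MT array over all kept probes was 0.980. The HCT116-WT arrays correlated at 0.965, no closer to each other than to the HCT116-MT arrays (0.964 to 0.969). *CTNNB1* read 2893 and 2001 in HCT116-MT and 2555 and 1761 in HCT116-WT, and whether this probe can distinguish the alleles was not examined.

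The further class II chains behaved unevenly. Of 9 listed, 6 had a kept probe, with a median log2 fold change of −0.35. At the study thresholds 1 of the 6 was lower and 0 higher, beside 3.85% and 3.46% of all genes. *HLA-DQB1*, the β chain of HLA-DQ, read 269 and 154 in HCT116-MT, against 406 and 329 in HCT116-WT (log2 fold change −0.71, SE 0.28, unadjusted p 0.04343, adjusted p 0.522 by limma). Its groups did not overlap, and HCT116-MT replicate 2 was the lowest array here too. Probes named for the DRB genes, the β chains that pair with HLA-DRα, went in different directions. *HLA-DRB3* read 795 and 579 in HCT116-MT and 608 and 561 in HCT116-WT (log2 fold change 0.38, SE 0.22). *HLA-DRB4* read 612 and 342 in HCT116-MT and 626 and 671 in HCT116-WT (−0.34, SE 0.31), and the pseudogene *HLA-DRB6* 400 and 218 in HCT116-MT and 385 and 460 in HCT116-WT (−0.38, SE 0.33). None of the DRB probes passed the thresholds. The DRB genes are near-identical and differ between haplotypes in which copies exist, so a probe's signal may come from another DRB gene than the one it is named for. Intensities for *HLA-DRB3* and *HLA-DRB4* were thus well above background while the probe of *HLA-DRB1* was at it.

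The promoter factors showed no call. All 7 had a kept probe, 0 were lower and 0 higher, and their median log2 fold change was −0.07. *RFX5*, the largest subunit of the RFX complex, read 2355 and 1967 in HCT116-MT and 2802 and 2049 in HCT116-WT (−0.05, SE 0.19). *NFYC*, a subunit of NF-Y, read 1110 and 887 in HCT116-MT and 1845 and 878 in HCT116-WT (−0.22, SE 0.27). *CREB1* read 3805 and 8527 in HCT116-MT and 5593 and 13405 in HCT116-WT (−0.50, SE 0.60), so that in both lines its replicates differed by more than the lines did. The RFX and NF-Y subunits were therefore detected in cells whose *CIITA* probe was not.

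Endosomal enzymes that process antigen and invariant chain followed the direction of the detected chains in part. Of 10 listed, 9 had a kept probe, and the median log2 fold change was −0.39. At the study thresholds 2 of the 9 were lower and 0 higher, beside 3.85% and 3.46% of all genes. *CTSL*, the protease cathepsin L, read 5206 and 3306 in HCT116-MT and 10029 and 5656 in HCT116-WT (−0.79, SE 0.28, unadjusted p 0.03012, adjusted p 0.484 by limma). *CTSB*, cathepsin B, read 975 and 933 in HCT116-MT and 1714 and 1625 in HCT116-WT (−0.68, SE 0.21, unadjusted p 0.01867, adjusted p 0.438 by limma). For both genes the lines did not overlap, and unlike *HLA-DRA* the *CTSB* arrays of each line lay close together. *LGMN*, the asparagine endopeptidase legumain, read 2687 and 1675 in HCT116-MT and 3831 and 2876 in HCT116-WT (−0.56, SE 0.24). *CTSV* read 3094 and 1667 in HCT116-MT and 3039 and 2659 in HCT116-WT (−0.23, SE 0.29), and its groups overlapped. *CTSC*, cathepsin C, read 1741 and 1397 in HCT116-MT and 2352 and 1171 in HCT116-WT (0.03, SE 0.26), so that it did not share the direction.

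**Figure D3:**
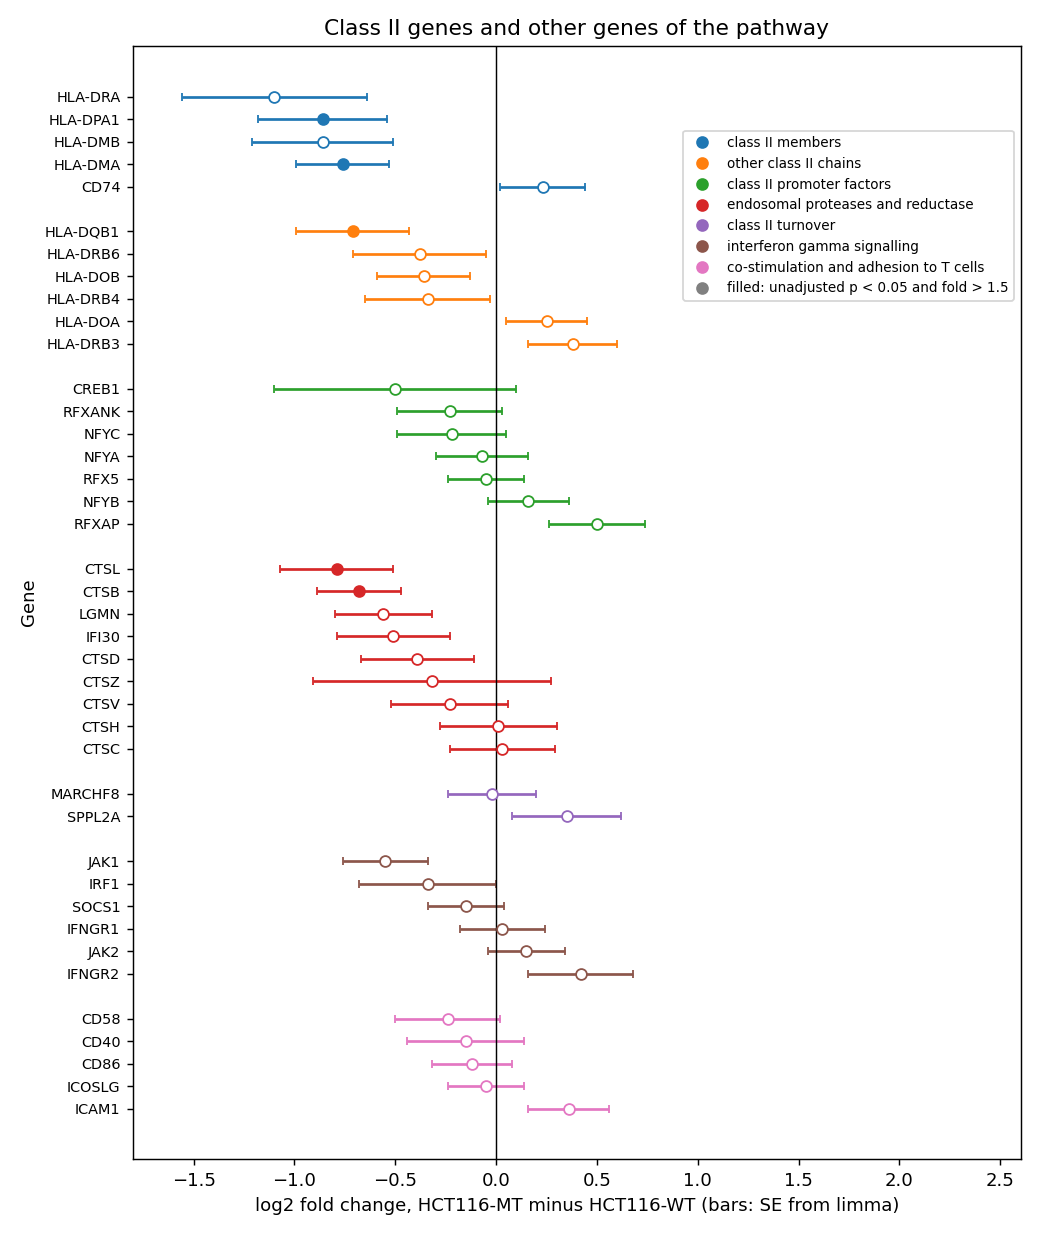
Log2 fold change (HCT116-MT minus HCT116-WT, 2 arrays each) with its standard error for the class II genes and the genes of 6 other lists that had a kept probe, coloured by list, with filled symbols for genes past both study thresholds. Filled symbols stand at *HLA-DPA1*, *HLA-DMA*, *HLA-DQB1*, *CTSL* and *CTSB*, all on the left of 0.

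In the interferon-γ pathway, which switches on *CIITA*, 6 of 7 listed genes had a kept probe, with 0 lower and 0 higher and a median log2 fold change of −0.06. The receptor chains *IFNGR1* (2031 and 1451 in HCT116-MT, 2017 and 1645 in HCT116-WT) and *IFNGR2* (3068 and 2740 in HCT116-MT, 3283 and 1626 in HCT116-WT) had log2 fold changes of 0.03 (SE 0.21) and 0.42 (SE 0.26). *JAK1*, the kinase on the receptor, read 718 and 525 in HCT116-MT and 1112 and 898 in HCT116-WT (−0.55, SE 0.21), with an unadjusted p of 0.03688 (adjusted p 0.494, limma) and a fold change under 1.5.

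*IRF1* and *IFI30*, chosen after their values were seen, are both induced by interferon-γ. *IRF1*, a transcription factor, read 440 and 398 in HCT116-MT and 954 and 380 in HCT116-WT. *IFI30*, the lysosomal thiol reductase, read 671 and 584 in HCT116-MT and 1468 and 685 in HCT116-WT. Their high array was HCT116-WT replicate 1, with replicate 1 minus replicate 2 at 0.98 and 0.71 on the log2 scale, whereas *HLA-DRA* and *HLA-DMB* were highest on HCT116-WT replicate 2.

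Turnover and co-stimulation held no call. Of 3 turnover genes 2 had a kept probe, among them *SPPL2A*, the protease that degrades the last invariant chain fragment (1075 and 988 in HCT116-MT, 1317 and 627 in HCT116-WT, log2 fold change 0.35, SE 0.27). *MARCHF8*, a ubiquitin ligase, was at −0.02 (SE 0.22). Of 7 co-stimulation and adhesion genes, 5 had a kept probe and the median was −0.12. *CD58*, a ligand of CD2 on T cells, was at −0.24 (SE 0.26), *CD40* at −0.15 (SE 0.29) and *ICOSLG* at −0.05 (SE 0.19). Over the 6 lists together 3 of 35 genes were lower at the study thresholds and 0 higher, beside 3.85% and 3.46% of all genes. Their median log2 fold change was −0.15. Limma with adjustment called 0 of the 35, and 4 had an unadjusted p under 0.05, a share near the 9.28% of all genes. Student's t-test called 0 unadjusted and 0 adjusted, and limma with a trend 3 unadjusted and 0 adjusted. Without HCT116-MT replicate 2 the count past the study thresholds was 0. Without HCT116-WT replicate 1 it was 5, with *CREB1* and *CTSB* lower and *RFXAP*, *SPPL2A* and *IFNGR2* higher, so that *CTSB* was the 1 gene shared with the 3 above.

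Most class II genes lie together on chromosome 6, and genes of peptide loading for class I lie between them. This stretch was chosen after its values were seen. From *HLA-DRA* to *HLA-DPB1* the gene table lists 33 genes, of which 17 had a probe and 13 a kept probe. The 4 detected class II chains were lower by mean, as were 8 of the 9 others, beside 50% of all genes. Of these others, 3 (*HLA-DQB1*, *PSMB8* and *PSMB9*) were lower at the study thresholds and 0 higher. Among all genes 3.85% were lower and 3.46% higher. *PSMB9*, a subunit of the immunoproteasome, read 367 and 223 in HCT116-MT and 1058 and 541 in HCT116-WT (−1.24, SE 0.30, unadjusted p 0.006159, adjusted p 0.386 by limma). *PSMB8*, another such subunit, was not detected in HCT116-MT and is given as at least 1.13-fold lower there, a bound set against the dimmest detected probe of each array. That bound does not reach the fold threshold, the probe was kept through HCT116-WT and could count only as lower, and its 3 other probes were detected on 0 arrays.

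**Figure D4:**
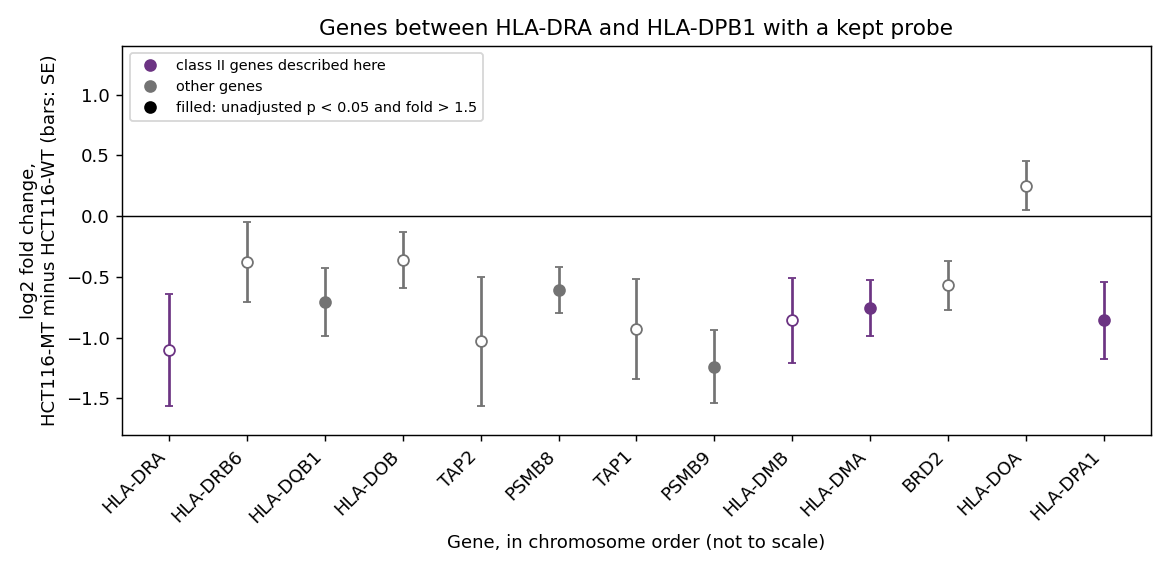
Log2 fold change (HCT116-MT minus HCT116-WT, 2 arrays each) with its standard error for the 13 genes with a kept probe in the stretch. Genes are in chromosome order and not to scale, with the 4 detected class II chains in purple and all others, further class II genes included, in grey. *HLA-DOA* (0.25) is the 1 gene above 0, and filled symbols mark the study thresholds.

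Some neighbours, but not all, differed from the 4 detected class II chains in which HCT116-WT array was high. *TAP1* and *TAP2* form the transporter that brings peptides to class I molecules. *TAP1* read 3182 and 2274 in HCT116-MT and 9240 and 3084 in HCT116-WT, and *TAP2* 621 and 852 in HCT116-MT and 3277 and 822 in HCT116-WT. Replicate 1 minus replicate 2 of HCT116-WT was 1.24 for *TAP1* and 1.63 for *TAP2*, and −0.95 for *HLA-DRA* and for *HLA-DMB*. It was 0.58 for *PSMB9*, 0.18 for *HLA-DOA* and 0.01 for *HLA-DQB1*. It was −0.58 for *HLA-DRB6*, −0.42 for *HLA-DOB*, −0.22 for *BRD2* and −0.16 for *PSMB8*, the sign of the 4 detected chains. Among these neighbours *HLA-DOA*, *HLA-DQB1*, *HLA-DRB6* and *HLA-DOB* are further class II genes. The fold changes of *TAP1* (−0.93, SE 0.41) and *TAP2* (−1.03, SE 0.53) did not pass the thresholds. *BRD2*, a chromatin reader that takes no part in antigen presentation, read 8199 and 7555 in HCT116-MT and 12307 and 12420 in HCT116-WT (−0.57, SE 0.20), with close replicates and a fold change just under 1.5.

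The mean centred log2 profile of the 5 class II genes joined the 4 detected chains with *CD74*, which was near background and not lower (log2 fold change 0.23). This mean profile was −0.04 and −0.63 in HCT116-MT and 0.05 and 0.62 in HCT116-WT. The replicate 1 arrays of the lines were thus next to each other and the replicate 2 arrays at the ends. By Euclidean distance over the 4 arrays, the genes with the nearest profiles were *DBT* (0.0400), *HBP1* (0.0417), *TBC1D8B* (0.0606), *NOTCH3* (0.0618) and *MARF1* (0.0657). *NOTCH3*, a receptor of the Notch family, read 677 and 384 in HCT116-MT and 854 and 951 in HCT116-WT. Their log2 fold changes ran from −0.68 to −0.63, and 0 of these 5 passed the study thresholds.

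Leukocytes carry class II molecules at high levels, so their markers were read beside the class II genes. Of 17 leukocyte markers 15 had a probe and 5 a kept one, 3 of them on all 4 arrays. The kept ones were *CD14*, *CD79A*, *CD79B*, *LYZ* and *AIF1*, and *CD79A*, *CD79B* and *AIF1* were the 3 detected on every array. *CD79B* read 419 and 259 in HCT116-MT and 276 and 393 in HCT116-WT. Its replicate 1 minus replicate 2 was 0.56 in HCT116-MT and −0.79 in HCT116-WT, the signs of the class II genes. *CD79A* shared these signs (0.25 and −0.06), and *CD14*, *LYZ* and *AIF1* did not. *PTPRC*, *MS4A1*, *ITGAX*, *CSF1R* and *CD3E*, which define leukocytes and their main classes, had no kept probe. Brightest probes of all 15, detected or not, summed to 2289 and 1936 in HCT116-MT and 2280 and 2338 in HCT116-WT. These sums hold background from undetected probes. Of the kept markers, 0 passed the thresholds in either direction. HCT116-MT replicate 2 had the lowest sum, taken before normalization, and also the lowest median intensity of all probes. After normalization it had the lowest value for 4 class II genes. The part of these markers in the class II differences was not tested. Of 10 colon epithelial markers 5 had a kept probe, *EPCAM*, *KRT8*, *KRT19*, *CDX2* and *GPA33*, and *KRT18*, *VIL1*, *CDX1*, *LGALS4* and *CDH17* had none. Brightest probes of all 10, detected or not, summed to 17741 and 19693 in HCT116-MT and 36300 and 27040 in HCT116-WT. *EPCAM*, the brightest of these markers, was lower in HCT116-MT (8001 and 10668, against 23136 and 13960 in HCT116-WT). Its log2 fold change was −0.92 (SE 0.30), with an unadjusted p of 0.0201 and an adjusted p of 0.445 by limma. Of the 5 kept markers 1, *EPCAM*, was lower at the study thresholds and 0 higher, beside 3.85% and 3.46% of all genes. The sum was highest on HCT116-WT replicate 1, unlike *HLA-DRA* and *HLA-DMB*. *KRT19* read 2899 and 2740 in HCT116-MT and 3525 and 5893 in HCT116-WT, and was highest on HCT116-WT replicate 2 as those genes were. The log2 fold change was −0.60 (SE 0.37) for *KRT19* and −0.35 (SE 0.19) for *KRT8*. It was −0.17 (SE 0.20) for *GPA33* and 0.19 (SE 0.23) for *CDX2*, and for both of these the groups overlapped. The part of these markers in the class II differences was not tested either.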

How the data were processed

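Intensities were extracted by the authors with GenomeStudio from HumanHT-12 v4 BeadChips, 2 of HCT116-MT and 2 of HCT116-WT. The deposited intensity values are not normalized between arrays, and the deposited table gives each a detection p-value, which sets it against negative control probes on the same array. Quantile normalization, a p-value under 0.05 and a fold change over 1.5 are named in the methods. Their integrated statistical method was not rebuilt, and limma 3.58.1 (R 4.3.3) stood in for it. Array build and chip positions are not given in the sources used here.

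Quantile normalization was applied to log2 intensities. A probe was kept if 2 or more of the 4 arrays had a detection p-value under 0.05, which left 20579 of 47321 probes. The brightest kept probe stood for each of 11875 genes, so a gene's value depends on that choice. HCT116-MT was compared with HCT116-WT by a moderated linear model, with Benjamini-Hochberg adjustment over all genes, or over all kept probes for a single probe. A probe table named 30112 probes with 1 symbol and 8 with several, and 30073 were matched to a gene ID of the RefSeq table of GRCh38.p14, used only for names and gene order. The number of arrays limits the precision.

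The class II genes and the lists were chosen with earlier results of these data known. Named were all 10 class II genes, every listed gene past the thresholds, the 3 others of each list with the largest mean intensity, *CTNNB1* and the 5 nearest profiles. Exceptions are stated in the text. Alternatives were other background corrections, scalings, filters, probe rules and tests, a replicate block, and leaving out each array. The steps were tested on simulated data drawn for probes well above background. Figures were drawn with matplotlib 3.10.9 (Python 3.11.15).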

Additional observations from a re-analysis of the deposited data

How the results depend on the processing

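The log2 fold changes of *HLA-DRA* (−1.65 to −0.55), *HLA-DPA1* (−1.28 to −0.43), *HLA-DMA* (−0.96 to −0.57), *HLA-DMB* (−1.34 to −0.39) and *CD74* (0.08 to 0.47) kept their sign under every alternative run, 15 for each chain and 14 for *CD74*. In each alternative 0 of the class II genes had an adjusted p under 0.05, and their smallest adjusted p lay between 0.228 and 1. The number of class II genes past the study thresholds was 2. It was 4, all lower, with median scaling, cyclic loess, no normalization, a mean-variance trend or the mean of kept probes. It was also 4, all lower, with a detection p-value under 0.01, where 4 of these genes were kept and *CD74* was not. It was 0 with Student's t-test. Leaving out single arrays gave 0 to 4. Their median log2 fold change of −0.86 became −0.34 with no detection filter, which adds the genes at background, and −1.09 to −0.55 without single arrays. Of the other lists, 3 genes passed, all lower, 5 with cyclic loess, all lower, 0 with Student's t-test, and 0 to 5 without single arrays, the 5 being 2 lower and 3 higher. Their median of −0.15 ranged from −0.26 to 0.01 without single arrays, the last without HCT116-MT replicate 2. Where an array was left out, the lone array of its line was assumed to vary like those of the other line.

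With the replicate number as a block the counts past the study thresholds stayed at 2 and 3, and the count of the other lists at an unadjusted p under 0.05 was 3 in place of 4. Over all genes it gave 0 adjusted calls in place of 8. The labels give the numbers no meaning beyond a name, and the replicate differences of the lines had r = −0.00587 over genes, which are not independent replicates, so the arrays were not treated as paired. Over all genes, the split of lower and higher calls was 457 and 411. It was 516 and 248 with median scaling and 605 and 130 with no normalization, which moved the median of all genes to −0.12. Cyclic loess gave 537 and 322, and a detection p-value under 0.01 gave 434 and 393 of 10005 genes. A mean-variance trend gave 459 and 388, and the mean of kept probes 426 and 389. Student's t-test gave 175 and 152, and adjusted calls ranged from 0 to 54, the last without HCT116-WT replicate 2. Without normalization the median of HCT116-WT replicate 1 minus replicate 2 over the class II genes was −0.05, against −0.38. What caused these shifts was not tested. Signal over background limits *CD74*, *HLA-DRB1*, *HLA-DPB1*, *CIITA* and *CTSS*.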

Other observations

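The subunits of the RFX complex beyond those described differed in direction. *RFXAP*, which anchors the complex, read 340 and 242 in HCT116-MT and 281 and 182 in HCT116-WT (log2 fold change 0.50, SE 0.24, adjusted p 0.596 by limma). *RFXANK* read 665 and 539 in HCT116-MT and 1107 and 561 in HCT116-WT (−0.23, SE 0.26). *HLA-DOA* and *HLA-DOB*, the chains of HLA-DO, which restrains HLA-DM, also differed in sign. *HLA-DOA* read 252 and 207 in HCT116-MT and 242 and 183 in HCT116-WT (0.25, SE 0.20), and *HLA-DOB* 185 and 147 in HCT116-MT and 210 and 244 in HCT116-WT (−0.36, SE 0.23). None of these passed the thresholds, and all 4 were named after their values were seen.

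Probes of 1 gene could disagree. *HLA-DRB4* had a second kept probe at 174 and 166 in HCT116-MT and 215 and 176 in HCT116-WT (log2 fold change −0.08), beside −0.34 for its brightest. *LGMN* had a dim kept probe at 0.01, beside −0.56 for its brightest and −0.58 for another. *CTSL* had kept probes at −0.81 and −0.36, beside −0.79 for its brightest, and the probe at −0.36 was short of the fold threshold.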
